A study of Mus musculus with 14 samples.

Results

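The genes described here encode the machinery that copies DNA in S phase. They were taken from a list of 37 named replication genes, each represented by the probe set with a single gene symbol and the highest mean over the arrays, and 36 of the 37 were measured among 18193 genes. Chaf1a, the large subunit of chromatin assembly factor 1, was not analysed here. The cells were 3T3-L1, a mouse fibroblast line that becomes fat cells under hormone treatment, transduced with lentivirus coding for an siRNA sequence against TP53INP2 (KD TP53INP2, called KD cells below) or for a scrambled sequence (control cells). TP53INP2 acts in autophagy and as a nuclear coactivator, and its mouse gene is Trp53inp2. RNA was taken at day 0 of differentiation from cells held past confluence, and at day 7. There were 3 arrays of KD cells and 3 of control cells at day 0, and 4 of KD cells and 4 of control cells at day 7. All cells in both groups carried a lentivirus, and the labels do not say whether a group was 1 transduced population or a clone. They also do not say whether replicates were separate cultures. The p-values below therefore rest on the scatter among these arrays alone, which may be technical.

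Before S phase, the origin recognition complex, Cdc6 and Cdt1 load the MCM helicase onto origins, and geminin (Gmnn) blocks further loading. Cdc45 and the GINS complex then switch the helicase on. DNA polymerases alpha, delta and epsilon copy the strands, delta and epsilon with the sliding clamp PCNA. Transcription of many of these genes is under E2F factors, which are held in check by the RB family in resting cells. Confluent 3T3-L1 cells stop dividing, and the differentiation cocktail is known to send them back into the cell cycle before they turn into adipocytes.

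The promoters of these genes are the sequences through which E2F factors are known to act, and 5 of them are printed. Mcm5 and Pcna were named beforehand as markers of the list. Pola1, Mcm6 and Cdt1 were taken for having the most E2F-type matches among the other measured genes, with ties by alphabet, so they do not stand for the whole list. Each is a 300-base window, 250 bases before to 50 after the annotated start, from RefSeq on build GRCm38.p6, read on the gene's own strand. Capitals mark the E2F-type letters searched for, TTCCCGC and TTGGCGC and also TTCGCGC or TTGCCGC, on either strand, with overlapping matches merged into 1 run. Mcm5 (gene ID 17218, chr8:75109259-75109558, plus strand) held 2 such runs and Pcna (gene ID 18538, chr2:132253131-132253430, minus strand) held 0. Pola1 (chrX:93632106-93632405, minus strand) held 4, Mcm6 (chr1:128359656-128359955, minus strand) held 3 and Cdt1 (chr8:122567765-122568064, plus strand) held 2.
Mcm5: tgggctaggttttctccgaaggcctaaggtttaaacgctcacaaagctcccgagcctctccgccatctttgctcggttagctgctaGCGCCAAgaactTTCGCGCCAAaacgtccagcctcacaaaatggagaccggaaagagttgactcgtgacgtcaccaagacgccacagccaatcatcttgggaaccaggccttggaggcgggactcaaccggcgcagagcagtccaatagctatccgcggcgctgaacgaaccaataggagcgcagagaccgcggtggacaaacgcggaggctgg
Pcna: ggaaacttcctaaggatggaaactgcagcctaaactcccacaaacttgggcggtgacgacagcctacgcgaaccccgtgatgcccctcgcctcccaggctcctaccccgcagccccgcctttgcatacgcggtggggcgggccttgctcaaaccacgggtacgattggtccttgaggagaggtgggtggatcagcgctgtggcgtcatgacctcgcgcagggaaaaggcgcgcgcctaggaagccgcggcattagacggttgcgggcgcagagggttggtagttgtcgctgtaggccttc
Pola1: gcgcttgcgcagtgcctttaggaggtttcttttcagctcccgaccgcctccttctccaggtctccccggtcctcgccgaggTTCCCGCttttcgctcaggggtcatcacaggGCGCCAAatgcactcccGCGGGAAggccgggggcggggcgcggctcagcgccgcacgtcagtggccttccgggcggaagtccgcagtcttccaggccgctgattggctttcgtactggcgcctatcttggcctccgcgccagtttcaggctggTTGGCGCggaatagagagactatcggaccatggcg
Mcm6: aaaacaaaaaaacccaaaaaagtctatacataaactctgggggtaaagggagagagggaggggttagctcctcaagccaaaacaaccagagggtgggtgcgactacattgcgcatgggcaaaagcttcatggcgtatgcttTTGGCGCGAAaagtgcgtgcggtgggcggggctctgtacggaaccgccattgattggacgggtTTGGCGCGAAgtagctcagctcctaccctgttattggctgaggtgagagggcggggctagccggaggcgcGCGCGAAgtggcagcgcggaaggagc
Cdt1: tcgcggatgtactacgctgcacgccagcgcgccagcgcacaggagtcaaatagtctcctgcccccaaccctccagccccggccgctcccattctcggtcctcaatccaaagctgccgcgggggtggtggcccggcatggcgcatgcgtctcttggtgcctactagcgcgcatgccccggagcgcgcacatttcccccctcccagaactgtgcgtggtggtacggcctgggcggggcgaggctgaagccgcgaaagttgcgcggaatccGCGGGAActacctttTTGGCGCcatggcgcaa

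Of the 37 listed genes, 30 had a window in the promoter table, and 22 of the 30 (73.3%) held at least 1 E2F-type match, against 16.0% of the 14452 genes on the array with a window. At least 2 matches were found in 33.3% of the replication genes and in 2.0% of the genes on the array. The CCAAT box (CCAAT), a common element of promoters of dividing cells, was present in 60.0% of the replication genes and in 42.0% of the genes on the array, and it overlapped an E2F-type match in 2 of 35 windows. The CHR element (TTTGAA or TTCGAA), known from mitotic promoters, was present in 16.7% of the replication genes and in 17.5% of the genes on the array. Median GC content of the windows was 57.7% in the replication genes and 58.3% in the genes on the array. A match describes letters in this window and not a bound site.

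The targeted gene followed the labels. At day 0, Trp53inp2 had log2 expression values of 11.06, 11.14 and 11.66 in KD cells, against 12.45, 12.53 and 12.38 in control cells. At day 7 it had 10.20, 10.06, 10.01 and 10.45 in KD cells, against 11.74, 11.77, 11.78 and 11.70 in control cells. The difference was -1.17 ± 0.15 at day 0 (SE, limma adjusted p = 0.00205) and -1.57 ± 0.13 at day 7 (limma adjusted p = 0.000111). The groups did not overlap, and among KD arrays of day 0 replicate 3 kept the highest Trp53inp2 value. Arrays also differed in how close replicates lay. Over the brighter genes, those with a mean above the median of all gene means, replicates 1 and 2 of a group differed with an SD of 0.0970 to 0.201 log2 units. The other pairs of a group differed with an SD of 0.240 to 0.476. For KD replicate 3 at day 0 this SD was 0.355 and 0.380 against replicates 1 and 2. Of the macrophage markers, Adgre1 (2.10 to 3.00) and Ptprc (2.61 to 3.62) stayed near the bottom of the scale, which began at 1.13, as did the endothelial markers Pecam1, Cdh5 and Kdr (2.61 to 3.87). Csf1r (7.27 to 9.88) and Cd68 (5.99 to 7.12) did not. Lyz2, Tek and Tie1 were also listed and measured. With them, the mean of the 5 markers of each list lay between 4.78 and 5.56 per array for macrophage markers and between 2.91 and 3.51 for endothelial markers.

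Replication genes were higher at day 7 than at day 0 in both kinds of cell. In KD cells 35 of 36 passed the test as higher, against 19.0% of all genes, and in control cells 34 of 36 passed, against 10.1% of all genes. Calls were made in limma, with p-values adjusted over all genes by Benjamini-Hochberg and a threshold of 0.05. The median rise of the 36 genes was 1.93 log2 units in KD cells, where the median of all genes was 0.01, and 1.32 in control cells, where it was -0.01. In 35 of 36 genes the day 7 arrays lay wholly above the day 0 arrays in KD cells (21.3% of all genes did), and the count was 35 in control cells as well (14.2% of all genes). In array data on bulk RNA, more cells of a kind and more RNA per cell cannot be told apart. The rises were at least 2-fold for 34 genes in KD cells and 26 in control cells, and at least 4-fold for 15 in KD cells and 6 in control cells. With replicates 1 and 2 averaged into 1 sample, 28 of 36 were called in control cells, against 4.08% of all genes.

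**Figure D1:**
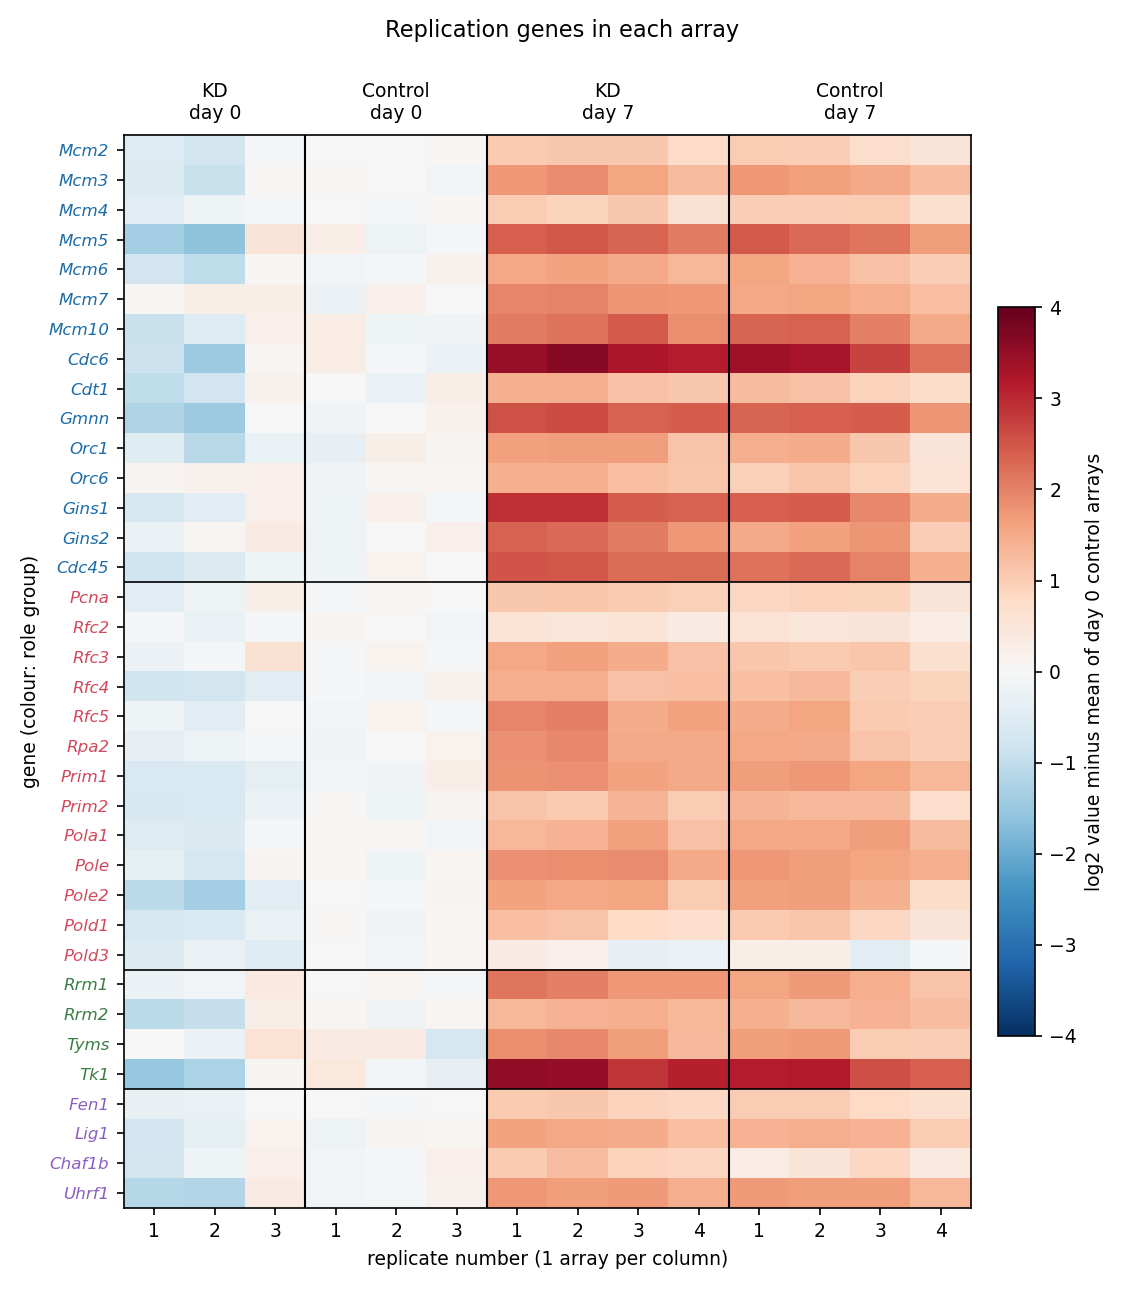
Log2 value of each of the 36 measured replication genes (vertical axis, coloured by role group) in each of the 14 arrays (horizontal axis, by group and replicate number), minus the gene's mean over the 3 control arrays of day 0. Red is higher and blue lower; the day 7 arrays are red for nearly every gene except Pold3, and at day 0 the blue sits in KD replicates 1 and 2 and is mostly missing from KD replicate 3.

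Among the helicase and its loaders, 15 of 15 genes rose in both KD and control cells, with a median of 2.08 log2 units in KD cells and 1.47 in control cells. Mcm5, a subunit of the MCM helicase, had 11.51, 11.58, 11.42 and 11.20 in KD cells at day 7, against 7.75, 7.51 and 9.62 in KD cells at day 0. In control cells it had 11.57, 11.37, 11.24 and 10.77 at day 7, against 9.38, 8.91 and 9.03 at day 0. The lowest day 7 array was above the highest day 0 array in each case. Mcm5 rose by 3.13 ± 0.39 in KD cells (8.78-fold, limma adjusted p = 5.19e-05) and by 2.13 ± 0.39 in control cells (4.38-fold, limma adjusted p = 0.00187).

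Cdc6, which brings the helicase to origins, had 10.03, 10.17, 9.78 and 9.68 in KD cells at day 7, against 5.67, 5.10 and 6.62 in KD cells at day 0. Its values in control cells were 9.94, 9.84, 9.25 and 8.72 at day 7, against 6.83, 6.49 and 6.31 at day 0. The rise was 4.12 ± 0.34 in KD cells (17.3-fold) and 2.89 ± 0.34 in control cells (7.43-fold), and day 7 and day 0 did not overlap. Gmnn, the inhibitor of Cdt1, rose by 3.36 ± 0.28 in KD cells and by 2.23 ± 0.28 in control cells. Its values were 9.18, 9.25, 8.99 and 9.05 in KD cells at day 7, against 5.45, 5.19 and 6.65 in KD cells at day 0. In control cells Gmnn had 8.97, 9.04, 9.06 and 8.42 at day 7, against 6.49, 6.62 and 6.81 at day 0, and the days did not overlap in either cell type. The smallest rise of the role group was that of Mcm4 in KD cells, 1.12 ± 0.14, and that of Mcm2 in control cells, 0.81 ± 0.16. Mcm4, a helicase subunit, had 10.92, 10.79, 10.99 and 10.51 in KD cells at day 7, against 9.44, 9.73 and 9.86 at day 0. In control cells it had 10.88, 10.89, 10.91 and 10.55 at day 7, against 9.91, 9.83 and 9.96 at day 0, so even this small rise left no overlap.

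Of the polymerase, primase, clamp and clamp loader genes, 12 of 13 rose in KD cells and 12 of 13 in control cells, with a median of 1.76 in KD cells and 1.17 in control cells. Pcna, the sliding clamp, had 12.74, 12.77, 12.72 and 12.62 in KD cells at day 7, against 11.22, 11.47 and 11.91 in KD cells at day 0. In control cells it had 12.50, 12.58, 12.55 and 12.18 at day 7, against 11.57, 11.73 and 11.69 at day 0. Day 7 was above day 0 in every array, by 1.18 ± 0.15 in KD cells (limma adjusted p = 4.65e-05) and 0.79 ± 0.15 in control cells (limma adjusted p = 0.00189). Prim1, the catalytic subunit of primase, had the lowest adjusted p of the 36 in both cell types, with 2.21 ± 0.13 in KD cells (limma adjusted p = 5.02e-07) and 1.58 ± 0.13 in control cells (limma adjusted p = 1.24e-05).

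The exception in this role group was Pold3, an accessory subunit of polymerase delta. It had 8.19, 8.07, 7.52 and 7.64 in KD cells at day 7, against 7.32, 7.58 and 7.35 in KD cells at day 0, and 8.12, 8.10, 7.41 and 7.78 in control cells at day 7, against 7.88, 7.76 and 7.94 in control cells at day 0. Replicates 1 and 2 of day 7 were high and replicates 3 and 4 were not, so the days overlapped in both cell types. The differences were 0.44 ± 0.19 in KD cells (limma adjusted p = 0.0961) and -0.01 ± 0.19 in control cells (limma adjusted p = 0.990). A second, dimmer probe set for Pold3 gave 1.60 ± 0.22 in KD cells and 0.73 ± 0.22 in control cells, so the gene's change depends on the probe set. Rfc2, a clamp loader subunit, had the next smallest rise, 0.60 ± 0.10 in KD cells and 0.47 ± 0.10 in control cells, and passed the test in both. It had 11.58, 11.51, 11.56 and 11.35 in KD cells at day 7, against 10.96, 10.77 and 10.97 at day 0, and 11.61, 11.52, 11.55 and 11.31 in control cells at day 7, against 11.13, 11.02 and 10.92 at day 0. Day 7 lay above day 0 on every array of both cell types.

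All 4 nucleotide supply genes rose in both cell types, with a median of 1.93 in KD cells and 1.40 in control cells. Tk1, thymidine kinase of dividing cells, had 11.59, 11.55, 10.90 and 11.17 in KD cells at day 7, against 6.54, 6.79 and 8.15 in KD cells at day 0. In control cells Tk1 had 11.19, 11.22, 10.64 and 10.43 at day 7, against 8.48, 7.94 and 7.72 at day 0. This was the largest rise of the 36 genes in KD cells, 4.14 ± 0.35 or 17.7-fold, and it was 2.82 ± 0.35 or 7.08-fold in control cells. The ribonucleotide reductase subunits Rrm1 and Rrm2 rose by 1.88 and 1.97 in KD cells and by 1.46 and 1.33 in control cells. The other 2 probe sets of Rrm2, both dimmer, gave rises of 3.86 and 3.50 in KD cells and of 2.69 and 2.51 in control cells, so the size of its rise depends on the probe set. For Tyms the probe set used gave 1.58 in KD cells and 1.34 in control cells. The other probe sets of Tyms, all dimmer, gave 0.31, -0.14 and 0.60 in KD cells and 0.39, -0.15 and 0.51 in control cells.

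Among the Okazaki fragment and chromatin genes, 4 of 4 rose in KD cells and 3 of 4 in control cells. The flap nuclease gene Fen1 rose by 1.16 ± 0.11 in KD cells and 0.87 ± 0.11 in control cells, and the ligase gene Lig1 by 1.80 ± 0.19 in KD cells and 1.31 ± 0.19 in control cells. A dimmer probe set of Fen1 gave 2.33 ± 0.20 in KD cells and 1.73 ± 0.20 in control cells. Uhrf1, needed to copy DNA methylation, rose by 2.30 ± 0.29 in KD cells and 1.60 ± 0.29 in control cells. Chaf1b, a histone chaperone subunit, had 7.72, 7.96, 8.26 and 7.82 in control cells at day 7, against 7.31, 7.35 and 7.64 at day 0. These did not overlap, but the difference of 0.51 ± 0.20 missed the threshold (limma adjusted p = 0.0828). In KD cells Chaf1b had 8.48, 8.66, 8.35 and 8.29 at day 7, against 6.71, 7.27 and 7.65 at day 0, again with no overlap.

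**Figure D2:**
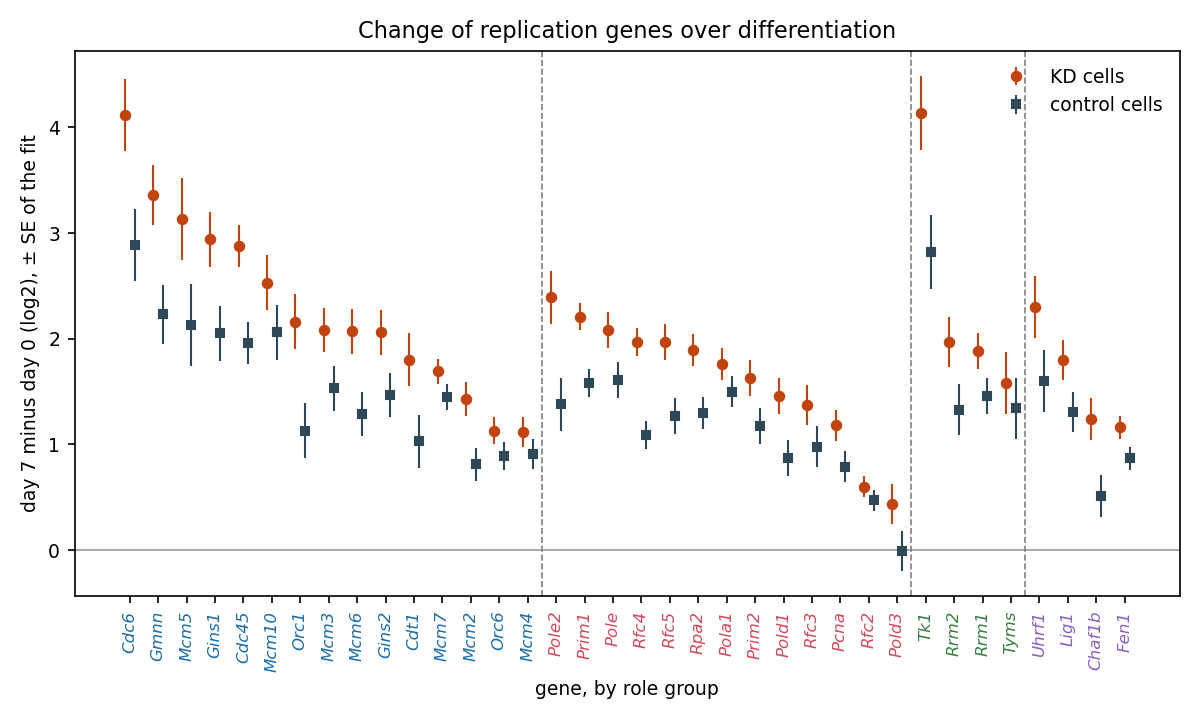
Day 7 minus day 0 of each replication gene on the log2 scale (vertical axis), with genes on the horizontal axis sorted within 4 role groups, and bars for the SE of the limma fit. Circles are KD cells and squares control cells; the circle lies above the square for all 36 genes, with Tk1 and Cdc6 highest (4.14 and 4.12 in KD cells, 2.82 and 2.89 in control cells) and Pold3 lowest.

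Genes that work beside this machinery moved in the same direction over time. Of 41 other replication genes, 37 rose in KD cells and 32 in control cells, among them Wdhd1, a replisome adaptor, by 2.98 ± 0.15 in KD cells and 1.96 ± 0.15 in control cells. Of 14 checkpoint and repair genes, 14 rose in KD cells and 12 in control cells, including Brca1 by 2.71 ± 0.19 in KD cells and 2.05 ± 0.19 in control cells. The 32 regulators of the E2F, RB and G1/S group were mixed. In KD cells 22 rose and 3 fell, and in control cells 17 rose and 2 fell, with Myc higher by 2.60 ± 0.20 in KD cells and 2.18 ± 0.20 in control cells. All 23 mitotic genes rose in both cell types, with a median of 3.30 in KD cells and 2.52 in control cells. Mki67, the gene of the proliferation antigen Ki-67, rose by 3.73 ± 0.26 in KD cells and 2.84 ± 0.26 in control cells. In the same arrays 4 of 5 measured adipocyte markers rose in both cell types, such as Fabp4 by 1.2 ± 0.14 in KD cells and 1.47 ± 0.14 in control cells. Of 6 preadipocyte markers, 6 fell in KD cells and 5 in control cells. Of all genes 16.8% fell in KD cells and 12.8% in control cells.

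The rise over time was larger in KD than in control cells for 36 of 36 genes, yet no gene passed the test of that difference. The comparisons share no array, but this difference is the same quantity as the knockdown difference at day 7 minus that at day 0. It had a median of 0.59 log2 units, against 0.04 over all genes, and was above 0 in 55.6% of all genes. In limma 0 of 36 were called, and only 0.0165% of all genes were called higher. At an unadjusted p under 0.05 there were 16 of 36 (44.4%), all positive, against 8.52% of all genes in that direction. The largest differences were those of Tk1 (1.32 ± 0.50, limma adjusted p = 0.284), Cdc6 (1.22 ± 0.48, limma adjusted p = 0.298) and Gmnn (1.12 ± 0.39, limma adjusted p = 0.255). The smallest were those of Rfc2 (0.13 ± 0.14), Mcm4 (0.22 ± 0.19) and Orc6 (0.24 ± 0.18). Orc6 had 11.19, 11.16, 10.96 and 10.85 in KD cells at day 7 and 9.86, 9.93 and 9.96 at day 0, against 10.72, 10.85, 10.67 and 10.33 in control cells at day 7 and 9.62, 9.81 and 9.83 at day 0, so that KD arrays lay above control arrays on both days. The lowest adjusted p belonged to Rfc4, a clamp loader subunit, with 0.88 ± 0.19 (limma adjusted p = 0.0929). A second, dimmer probe set for Rfc4 gave 1.13 ± 0.17 and was past the threshold (limma adjusted p = 0.0418 over all probe sets). With the replicate number within a day as a block, Rfc4 and Prim1 were called (limma adjusted p = 0.0265 and 0.0403), where 0.742% of all genes were called higher. This block was chosen after the data were seen. The planned block over both days called 0 of 36 (0.11% of all genes were called higher), and with replicates 1 and 2 averaged limma called 0 of all genes, with 1159 at an unadjusted p under 0.05. Without KD replicate 3 of day 0, 7 were called, where 0.792% of all genes were called higher.

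At day 0, most replication genes were lower in KD than in control cells in replicates 1 and 2, while 21 of 36 were higher in replicate 3. In limma 1 of 36 genes, Rfc4, was called lower, against 1.34% of all genes, and 0 were called higher, against 0.467%. The median difference of the 36 was -0.42 log2 units, against -0.05 over all genes, and 30 of 36 were below 0. At an unadjusted p under 0.05 there were 13 of 36 (36.1%), all lower, against 11.0% of all genes in that direction. KD arrays lay wholly below control arrays for 7 genes (19.4% of the 36, against 15.7% of all genes), and wholly above for Orc6 alone (6.89% of all genes).

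Rfc4 had 9.83, 9.90 and 10.17 in KD cells at day 0, against 10.57, 10.50 and 10.79 in control cells. Every KD array was below every control array, by 0.66 on average (-0.66 ± 0.14, limma adjusted p = 0.0355). A second probe set for Rfc4 gave -0.77 ± 0.13 (limma adjusted p = 0.00930 over all probe sets). The call was lost with quantile normalization (limma adjusted p = 0.0581), with only the groups compared in the fit (0.0865), with replicates 1 and 2 averaged (0.408), without both replicate 3 arrays of day 0 (0.059), and without any single array of day 0 other than KD replicate 3 (0.0689 to 0.136), while the difference stayed between -0.77 and -0.57. Of the 7 genes without overlap, 6 were among the 13 polymerase, primase, clamp and clamp loader genes, namely Rfc4, Prim1, Prim2, Pole2, Pold1 and Pold3, and the other was Mcm2. That is 46.2% of the 13 and 6.67% of the 15 helicase and loader genes, against 15.7% of all genes. This split by role was seen after the fact and was not tested. Pole2, the second subunit of polymerase epsilon, had 6.48, 6.17 and 7.10 in KD cells at day 0, against 7.51, 7.45 and 7.65 in control cells. It had the largest mean difference, -0.95 ± 0.27, which missed the threshold (limma adjusted p = 0.103), and KD replicate 3 was the closest to control. Its second, dim probe set gave 0.13 ± 0.18.

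For Mcm5, Tk1 and Gmnn the KD replicates split. Mcm5 in KD cells was at 7.75 and 7.51 in replicates 1 and 2 and at 9.62 in replicate 3, against 9.38, 8.91 and 9.03 in control cells, so that replicate 3 was the highest of the 6 arrays. The average difference was -0.81 ± 0.42 (limma adjusted p = 0.383). Tk1 had 6.54, 6.79 and 8.15 in KD cells, against 8.48, 7.94 and 7.72 in control cells (-0.89 ± 0.38, limma adjusted p = 0.277). Gmnn had 5.45, 5.19 and 6.65 in KD cells, against 6.49, 6.62 and 6.81 in control cells (-0.88 ± 0.30, limma adjusted p = 0.174). In these 3 genes KD replicate 3 alone reached the control values.

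Pcna was less far apart, with 11.22, 11.47 and 11.91 in KD cells at day 0, against 11.57, 11.73 and 11.69 in control cells (-0.13 ± 0.16, limma adjusted p = 0.768). The highest differences were those of Mcm7, Orc6 and Tyms. Mcm7, another helicase subunit, had 10.23, 10.42 and 10.42 in KD cells, against 9.95, 10.40 and 10.22 in control cells (0.17 ± 0.13). Orc6, of the origin recognition complex, had 9.86, 9.93 and 9.96 in KD cells, against 9.62, 9.81 and 9.83 in control cells (0.16 ± 0.13). Both lay slightly higher in KD cells in all 3 pairs, and neither passed the test (limma adjusted p = 0.608 and 0.641). Tyms, thymidylate synthase, had 6.35, 6.12 and 6.94 in KD cells, against 6.68, 6.69 and 5.70 in control cells (0.11 ± 0.31, limma adjusted p = 0.920) and its sign turned without control replicate 3 (-0.21) or without KD replicate 3 (-0.12).

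Arrays of KD and control cells with the same replicate number varied together within a day, and the genes were therefore also compared pair by pair. The labels state no pairing, and replicates 1 and 2 of a group lay close together, so pairs 1 and 2 may not be separate evidence. In pairs 1 and 2 of day 0, 34 and 33 of 36 genes were lower in KD cells, with medians of -0.56 and -0.52. In pair 3, 15 were lower and 21 higher, with a median of 0.04. Over all genes 57.8%, 54.9% and 59.0% were lower in the 3 pairs. The 36 genes split into 15 that were lower in all 3 pairs (41.7%, against 28.0% of all genes) and 18 that were lower in pairs 1 and 2 and higher in pair 3 (12.6% of all genes were). All 4 nucleotide supply genes were of the second kind, as were 5 of 15 helicase and loader genes and 6 of 13 polymerase and clamp genes. The block within each day called Pold1, Pole2, Prim1 and Rfc4 lower, 4 of 36, where 3.40% of all genes were called lower.

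**Figure D3:**
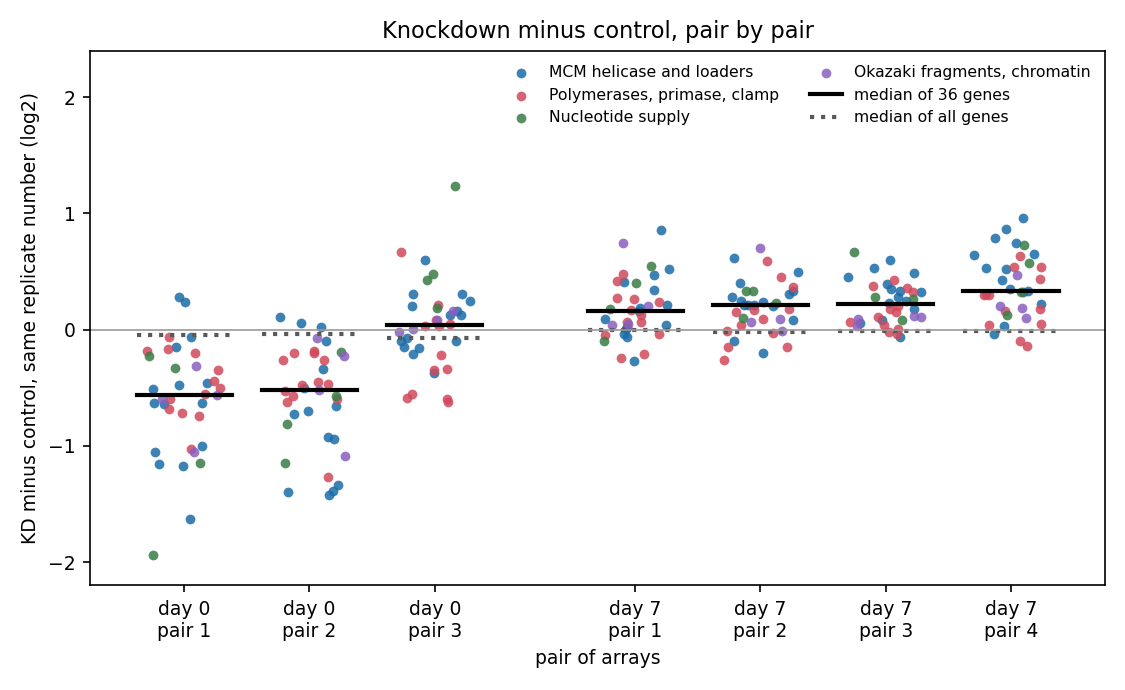
KD minus control on the log2 scale (vertical axis) for each of the 36 genes in each pair of arrays with the same replicate number (horizontal axis), 3 pairs at day 0 and 4 at day 7. Points are genes coloured by role group, the solid line is the median of the 36 genes and the dotted line that of all genes; the medians are -0.56, -0.52 and 0.04 at day 0 and 0.16, 0.21, 0.22 and 0.33 at day 7.

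Leaving out KD replicate 3 of day 0 raised the count to 10 genes called lower (Cdt1, Gmnn, Mcm2, Mcm5, Mcm6, Pole2, Rfc4, Rrm2, Tk1 and Uhrf1), where 2.28% of all genes were called lower. Mcm5 was then at -1.48 ± 0.22 (limma adjusted p = 0.00414) and Tk1 at -1.38 ± 0.29 (limma adjusted p = 0.0273). Leaving out both replicate 3 arrays of day 0 gave 5 genes (Gmnn, Mcm5, Rrm2, Tk1 and Uhrf1), where 1.41% of all genes were called lower. Leaving out any other day 0 array gave 0. With replicates 1 and 2 averaged, 0 were called, where 0.104% of all genes were called lower. The genes called without KD replicate 3 and those called with the block have Pole2 and Rfc4 in common.

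Other values were set beside this split of KD replicate 3 from KD replicates 1 and 2, and not all of them shared it. The mean of the 36 genes, which restates the split, was 8.28, 8.29 and 8.95 in the KD arrays of day 0, against 8.88, 8.88 and 8.91 in the control arrays. The mean of the 23 mitotic genes was 6.41, 6.45 and 7.63 in KD cells, against 7.60, 7.57 and 7.66 in control cells. Among the 5 measured adipocyte markers of 6 listed, Adipoq, coding for adiponectin, ran the other way, with 7.29, 7.47 and 2.30 in KD cells, against 5.73, 4.48 and 3.15 in control cells. It was singled out after its values were seen, and it was the only one of the 5 that was lower in KD cells in pair 3 (-0.85, against 0.52 for Fabp4, 0.72 for Cidec, 0.43 for Pparg and 0.11 for Lpl). Cidec, with 3.86, 4.04 and 3.87 in KD cells, and Lpl, with 13.74, 13.64 and 13.68, did not set KD replicate 3 apart. The mean of the 5 was 9.75, 9.84 and 8.61 in KD cells, against 9.32, 9.05 and 8.43 in control cells, and without Adipoq it was 10.37, 10.43 and 10.19 in KD cells, against 10.22, 10.19 and 9.75 in control cells. RNA quality, read as the 3′ minus 5′ signal of the actin control probes, was 3.23, 2.97 and 2.74 in KD cells, against 3.76, 3.54 and 3.32 in control cells, and these did not overlap. In control cells this signal and Adipoq also fell from replicate 1 to replicate 3. The part of differentiation state, knockdown strength and RNA quality in the day 0 differences was not tested.

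**Figure D4:**
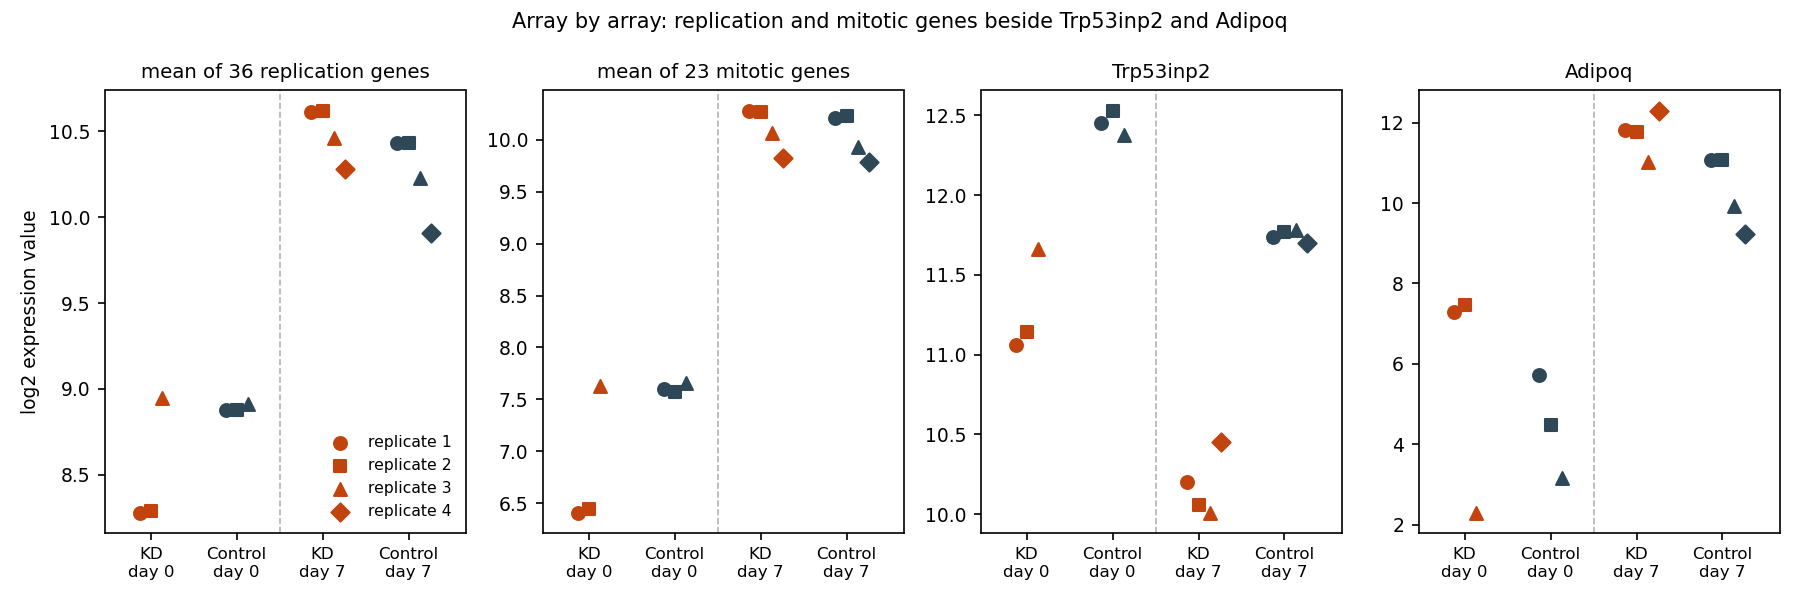
Log2 values by array (vertical axes) in 4 panels, for the mean of the 36 replication genes, the mean of the 23 mitotic genes, Trp53inp2 and Adipoq, in KD and control cells at day 0 and day 7 (horizontal axis), with a marker shape per replicate number. At day 0, KD replicate 3 lies with the control arrays in the first 2 panels (8.95 and 7.63), has the highest Trp53inp2 value of the KD arrays (11.66) and the lowest Adipoq value of all arrays (2.30).

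The neighbouring gene lists gave few calls at day 0. Of 41 other replication genes 1 was called lower (1.34% of all genes were), Dut, the dUTPase that keeps uracil out of DNA. Dut had 8.13, 8.30 and 8.22 in KD cells at day 0, against 8.84, 9.29 and 8.95 in control cells, with no overlap and KD replicate 3 between the other 2 (-0.81 ± 0.14, limma adjusted p = 0.0132). None of the 32 E2F, RB and G1/S regulators was called by limma, with 8 at an unadjusted p under 0.05, 2 of them higher, where 15.4% of all genes were in either direction. Their largest differences were in the repressors E2f8 (-1.22 ± 0.36, limma adjusted p = 0.121) and E2f7 (-1.01 ± 0.42, limma adjusted p = 0.267). E2f7 had 4.48, 4.58 and 6.35 in KD cells, against 5.95, 6.17 and 6.32 in control cells, which is the pattern of Mcm5. No mitotic gene of 23 was called, although all 23 were below 0 with a median of -0.82 and 15 (65.2%) had an unadjusted p under 0.05. Of 14 checkpoint and repair genes limma called 0, with 5 (35.7%) at an unadjusted p under 0.05 and 13 below 0.

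At day 7, replication genes lay slightly higher in KD than in control cells, and no gene passed the test. The median difference of the 36 was 0.22 log2 units, against -0.02 over all genes, and 33 of 36 were above 0, as were 47.1% of all genes. In limma 0 of 36 were called, against 3.01% of all genes called higher. At an unadjusted p under 0.05 there were 10 of 36 (27.8%), all higher, against 11.4% of all genes in that direction. KD arrays lay wholly above control arrays for 6 genes, 16.7% of the 36 and 6.02% of all genes, namely Mcm7, Orc6, Pcna, Rfc3, Rrm1 and Chaf1b. They lay wholly below for 0 genes (6.96% of all genes).

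Gins2, a subunit of the helicase activator GINS, had the largest difference. It had 9.20, 9.08, 8.91 and 8.55 in KD cells at day 7, against 8.34, 8.46, 8.58 and 7.80 in control cells. KD was higher in every pair, but KD replicate 4 was below control replicate 3 (0.64 ± 0.19, limma adjusted p = 0.0661). Gins1, of the same complex, had 10.99, 10.98, 10.48 and 10.42 in KD cells, against 10.47, 10.48, 9.99 and 9.55 in control cells (0.59 ± 0.24, limma adjusted p = 0.151). Chaf1b had 8.48, 8.66, 8.35 and 8.29 in KD cells, against 7.72, 7.96, 8.26 and 7.82 in control cells (0.50 ± 0.18, limma adjusted p = 0.114), with no overlap and a narrow gap at replicate 3.

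Mcm7 came closest to the threshold. It had 12.14, 12.18, 11.97 and 11.93 in KD cells at day 7, against 11.73, 11.78, 11.65 and 11.40 in control cells (0.41 ± 0.12, limma adjusted p = 0.0511). Its other 3 probe sets gave 0.75, 0.69 and 0.43, each past the threshold over all probe sets (limma adjusted p = 0.00722, 0.0253 and 0.0378). Mcm5 differed by 0.19 ± 0.36 (limma adjusted p = 0.813), with values given above, and its 2 dimmer probe sets gave 0.59 ± 0.28 and 0.43 ± 0.26, neither past the threshold. Pcna was higher by 0.26 ± 0.13 without overlap and was not called (limma adjusted p = 0.273).

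At the low end were Pola1, Prim2 and Mcm4. Pola1, the catalytic subunit of polymerase alpha, had 8.91, 8.95, 9.22 and 8.73 in KD cells, against 9.12, 9.10, 9.24 and 8.83 in control cells, below control in all 4 pairs (-0.12 ± 0.14, limma adjusted p = 0.663). Prim2 had 10.06, 9.97, 10.29 and 9.94 in KD cells, against 10.29, 10.23, 10.22 and 9.64 in control cells, lower in pairs 1 and 2 and higher in pairs 3 and 4. Mcm4 had 10.92, 10.79, 10.99 and 10.51 in KD cells, against 10.88, 10.89, 10.91 and 10.55 in control cells, with no common direction. For Rrm2 the probe set used gave 0.05 ± 0.22, and a dimmer one 1.04 ± 0.27 (limma adjusted p = 0.0438 over all probe sets), so this gene's difference depends on the probe set. For Rpa2 the probe set used gave 0.39 ± 0.14, and a dimmer one 0.77 ± 0.18 (limma adjusted p = 0.0323 over all probe sets).

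By pair, 28, 28, 33 and 33 of 36 genes were higher in KD cells in pairs 1 to 4, and 23 were higher in all 4 pairs (63.9%, against 19.4% of all genes). The block within each day called 7 of 36 higher (Chaf1b, Gins1, Gins2, Mcm7, Orc6, Rfc5 and Rpa2), where 7.54% of all genes were called higher. In that fit Gins2 had a limma adjusted p of 0.00777 and Mcm7 of 0.0134. Averaging replicates 1 and 2 left 0 called, where 0.137% of all genes were called higher. Lower in all 3 day 0 pairs and higher in all 4 day 7 pairs were 8 of 36 genes (22.2%, against 3.85% of all genes).

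Of the 41 other replication genes, 2 were higher in KD cells at day 7. Pold4, the small subunit of polymerase delta, differed by 0.58 ± 0.11 (limma adjusted p = 0.0134) and Rfc1, the large subunit of the clamp loader, by 0.33 ± 0.07 (limma adjusted p = 0.0232). Pold4 had 9.59, 9.55, 9.62 and 9.71 in KD cells, against 8.84, 8.94, 9.32 and 9.06 in control cells, without overlap. None of the E2F, RB and G1/S, checkpoint and repair or mitotic genes was called by limma, with 9 of 32 (8 higher and 1 lower), 3 of 14 and 0 of 23 at an unadjusted p under 0.05, shares of 28.1%, 21.4% and 0% against 23.5% of all genes in either direction. The mean of the mitotic genes was 10.28, 10.27, 10.06 and 9.82 in KD cells, against 10.21, 10.23, 9.93 and 9.79 in control cells. Of the differentiation markers in the same arrays, 0 of 5 adipocyte markers were called by limma, with 2 at an unadjusted p under 0.05, and 2 of 6 preadipocyte markers, Col3a1 and Pdgfra, were called lower, as were 3.57% of all genes. Adipoq had 11.81, 11.76, 11.02 and 12.30 in KD cells, against 11.06, 11.08, 9.92 and 9.23 in control cells (1.40 ± 0.98, limma adjusted p = 0.435). The mean of the 5 measured adipocyte markers was 11.86 to 12.70 in KD cells and 11.01 to 12.08 in control cells. The part of these differences in those of the replication genes was not tested.

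The measured genes with and without an E2F-type match in any of their windows, printed or not, were set side by side. In KD cells the median rise over time was 1.89 in the 21 measured genes with an E2F-type match and 1.77 in the 8 without, and in control cells it was 1.31 in both. The median knockdown difference at day 0 was -0.51 with a match and -0.30 without, and at day 7 it was 0.19 with a match and 0.37 without. These medians are descriptions with no test. Tk1, with 0 matches in its window, had the largest rise in KD cells, and Pola1, with 4, rose by 1.76 ± 0.15 in KD cells and 1.5 ± 0.15 in control cells.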

How the data were processed

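Total RNA was amplified, labelled with biotin and hybridised to 14 expression arrays, per the labels' protocols. The authors deposited 1 table of log2 expression levels of probe sets. The submitters' processing notes name RMA and the affy package, with versions not given in the sources used here. RMA compresses changes of dim genes. The log base was read from the values, which ran from 1.13 to 14.37, and array medians lay between 5.44 and 5.57. There is no detection call, and the number of arrays limits precision.

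Of 45101 probe sets, 64 controls were left out, 34945 had 1 gene symbol in the platform annotation, 932 had several and 9160 are unnamed here. A RefSeq table held 18031 of the 18193 gene IDs and changed 0 symbols. The probe set with the highest mean stood for a gene. Promoter windows came from RefSeq (GRCm38.p6) and were matched by gene symbol, so a gene under another symbol would be missed.

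All arrays entered 1 linear model with 4 group means and no block (limma 3.58.1, R 4.3.3), with 5 contrasts and Benjamini-Hochberg adjustment over 18193 genes. Errors of differences are standard errors. The script was tested on simulated data. Arrays of KD and control cells with the same replicate number deviated together within a day (correlation of deviations from group means 0.187 to 0.331 at day 0 and 0.389 to 0.590 at day 7), so the number was taken to pair them within a day. Arrays of different number were not compared, so pairing cannot be told apart from a split of replicates 1 and 2 from the rest. Between days the correlation was 0.0320 in KD replicate 3 and 0.136 to 0.210 in the other 5 pairs. Pairing was taken to need more than 0.1 in every pair, so days were not paired, although these values overlap those within day 0. The genes, neighbouring lists and marker lists were chosen with earlier results of these data known. Genes named with all values were Mcm5, Pcna, and the 3 highest and 3 lowest of each contrast, with called genes up to 12. From other lists called genes were named (up to 6), or the 2 largest differences where none was called. Values singled out by probe set, overlap or a single alternative were chosen after they were seen. Alternatives covered the block, averaging replicates 1 and 2, the choice of probe set, scaling, a filter on dim genes (40% left out, which all 36 genes passed), fewer groups in the fit and leaving out each array.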

Additional observations from a re-analysis of the deposited data

Results flagged for a closer look

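In the groups of 4 arrays at day 7, a gene was set aside for a closer look where the lowest or highest array stood far from the others relative to the range of its group. Of 72 combinations of gene and group, 9 met this. The threshold is met by about 1 in 20 sets of independent values. These genes share the same arrays, so the 9 are not separate events and cannot be set against that rate. In all 9 the array was replicate 4 and the lowest of its group. In KD cells the gap, as a share of the range, was 0.878 for Mcm2, 0.927 for Orc1 and 0.895 for Pole2. In control cells it was 0.923 for Mcm4, 0.868 for Gmnn, 0.839 for Rfc3, 0.884 for Prim2, 0.852 for Lig1 and 0.923 for Uhrf1. The mean of the 36 genes at day 7 was also lowest in replicate 4, at 10.28 in KD cells and 9.91 in control cells.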

How the results depend on the processing

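The replicate numbers were taken to pair arrays within a day, which the labels do not state. This block, chosen after the data were seen, called 4 of 36 genes lower at day 0, 7 higher at day 7 and 2 for the difference between days, against 1, 0 and 0 without it. The planned replicate block over both days called 2 lower at day 0 and 3 higher at day 7. At day 0, averaging replicates 1 and 2, quantile normalization and fitting only the groups compared each left 0, leaving out both replicate 3 arrays (added after seeing the data) gave 5, and leaving out single arrays gave 0 to 10. At day 7, the probe set of largest interquartile range gave 3, the mean over probe sets 2, quantile normalization 1, the filter on dim genes 3, and leaving out single arrays 0 to 3. For the difference, the probe set of largest interquartile range gave 1, leaving out both day 0 replicate 3 arrays 4, and leaving out single arrays 0 to 7. Leaving out single arrays gave 35 to 36 genes for the rise in KD cells and 34 in control cells. The median change of the 36 kept its sign in each contrast under every alternative run. Of 1058 recomputed changes of single genes, 996 kept sign and side of the threshold, 10 lost and 26 gained the call, and 26 turned sign, those of the genes named next. Tyms at day 0 was -0.45 without both replicate 3 arrays and -0.21 to 0.29 without single arrays. Pcna at day 0 ranged from -0.32 to 0.03. Prim2 at day 7 was 0.04 with replicates averaged and 0.21 with the other probe set, and -0.18 to 0.04 without single arrays. Mcm4 at day 7 was 0.0048 averaged and -0.09 to 0.09 without single arrays. Pold3 in control cells was 0.04 with the block, 0.73 with the probe set chosen by interquartile range, 0.23 over probe sets, 0.02 with quantile normalization, 0.03 without both day 0 replicate 3 arrays, 0.14 without both day 7 replicate 3 arrays, and -0.09 to 0.14 without single arrays. The cause of these shifts was not tested. Over all genes, averaging replicates 1 and 2 left 64 calls at day 7, against 1197.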
